A study of Mus musculus with 8 samples.

Results

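A group of 10 genes of the endoplasmic reticulum (ER) protein-folding machinery and of its XBP1 response was followed in mouse calf muscle: Hspa5, Hsp90b1, Pdia3, Pdia4, Pdia6, Calr, Canx, Dnajb9, Xbp1 and Herpud1. Its members were taken by name from the gene rows of the count table, 10 of 25655 rows, and each name had a single row. All 10 had enough reads to be among the 9810 genes tested. The tissue was the gastrocnemius of male wild-type (WT) mice at day 4, with 5 control libraries from mice given 10% glycerol and 3 libraries from mice made septic with cecal slurry, intestinal contents that cause a mixed bacterial infection. The comparison asks which of these transcripts differ between septic and control muscle. The labels give no age. Whether each library is a separate mouse is not stated either, so the p-values below reflect the spread among these libraries, which may be technical. RNA was read with a QuantSeq kit, which samples the 3′ end of polyadenylated transcripts and gives about 1 read per transcript end.

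The ER is where secreted and membrane proteins are folded, and in muscle fibres it is continuous with the sarcoplasmic reticulum, the calcium store used for contraction. When unfolded proteins build up, the membrane sensors IRE1, ATF6 and PERK are released from the chaperone BiP and start the unfolded protein response. IRE1 cuts a short intron from Xbp1 mRNA, which lets a transcription factor be made that, with cleaved ATF6, switches on genes of folding and of ER-associated degradation, the route by which misfolded proteins are pulled back to the cytosol and destroyed. Counts near the 3′ end do not show whether Xbp1 mRNA was spliced, so its level below is that of both forms together.

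The classic response element of these promoters, the ER stress element (ERSE), consists of CCAAT, 9 bases of any kind, and CCACG, and a shorter form, ERSE-II, consists of ATTGG, 1 base and CCACG. Both were searched by exact letters on both strands, from 250 bases before to 50 bases after the RefSeq start of each gene in build GRCm38.p6. The promoters of Hspa5, of the most strongly raised member Canx, and of Herpud1 are shown. The reasons are that Hspa5 is the usual marker gene of the response and that Herpud1 has the 1 exact ERSE-II match. Hspa5 and Canx each have 1 exact ERSE match, and elements with a differing letter were not searched. The 250 bases before the start are printed 5′ to 3′ along the gene, with the letters of the element in capitals.
Hspa5 (GRCm38.p6, chr2:34771840-34772089, plus strand): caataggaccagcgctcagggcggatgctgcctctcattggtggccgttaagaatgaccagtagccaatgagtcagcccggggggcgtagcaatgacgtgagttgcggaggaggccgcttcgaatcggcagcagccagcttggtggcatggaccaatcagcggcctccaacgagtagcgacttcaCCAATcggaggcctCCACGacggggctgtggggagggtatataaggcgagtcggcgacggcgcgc
Canx (GRCm38.p6, chr11:50325674-50325923, minus strand): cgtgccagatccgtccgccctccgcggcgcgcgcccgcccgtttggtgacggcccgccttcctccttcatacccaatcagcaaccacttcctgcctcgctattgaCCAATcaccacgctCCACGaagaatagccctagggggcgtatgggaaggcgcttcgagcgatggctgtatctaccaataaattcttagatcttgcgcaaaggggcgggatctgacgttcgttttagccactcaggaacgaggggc
Herpud1 (GRCm38.p6, chr8:94386179-94386428, plus strand): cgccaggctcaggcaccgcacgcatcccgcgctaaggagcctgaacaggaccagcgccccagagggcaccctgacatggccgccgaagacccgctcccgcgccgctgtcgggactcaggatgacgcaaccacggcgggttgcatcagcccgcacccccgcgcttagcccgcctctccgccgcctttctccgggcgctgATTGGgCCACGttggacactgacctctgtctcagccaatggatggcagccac

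An ERSE was found in 5 of the 10 promoters, those of Hspa5, Hsp90b1, Pdia6, Calr and Canx, and an ERSE-II in 1, that of Herpud1. Over all 32851 promoter windows of that length in the table, an ERSE stood in 0.119% and an ERSE-II in 0.0365%. Both are the elements classically described for promoters of this kind, so matches among the members were likely beforehand. The counts are a description and no test of enrichment. The first base of the element lay 65 bases before the start in Hspa5, 145 in Canx and 52 in Herpud1. The elements of the other 3 genes are printed in the direction in which they match, with the fixed letters in capitals, to show that only the fixed parts are shared.
Hsp90b1 (GRCm38.p6, chr10:86705533-86705551, plus strand): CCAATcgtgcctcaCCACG
Hsp90b1 (GRCm38.p6, chr10:86705638-86705656, minus strand): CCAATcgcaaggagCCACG
Pdia6 (GRCm38.p6, chr12:17266491-17266509, plus strand): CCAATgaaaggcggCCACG
Calr (GRCm38.p6, chr8:84847075-84847093, plus strand): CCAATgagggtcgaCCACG

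Hsp90b1 had 2 exact matches, in opposite directions. No exact ERSE or ERSE-II was found in the windows of Pdia3, Pdia4, Dnajb9 and Xbp1, and the UPRE core TGACGTGG, searched on both strands and present in 0.676% of all windows, was found in no member. This says only that these letters are not in these windows. In the comparison given below, Canx and Herpud1 passed the test among the 6 members with an element, and Xbp1 and Dnajb9 among the 4 without.

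**Figure D1:**
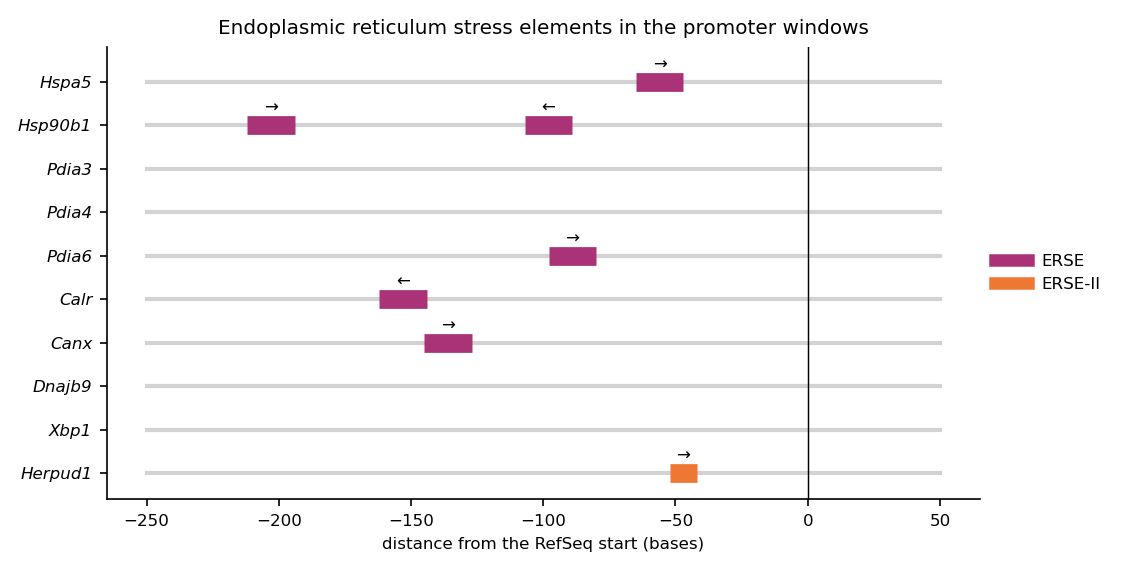
Position of exact ERSE (purple) and ERSE-II (orange) matches in the promoter windows of the 10 genes, in bases from the RefSeq start. Arrows give the direction of the match, and the matches lie between 212 and 42 bases before the start.

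In septic muscle 4 of the 10 genes were higher: the membrane chaperone gene Canx rose 2.08-fold, Xbp1 rose 1.88-fold, the co-chaperone gene Dnajb9 rose 1.84-fold and the degradation factor gene Herpud1 rose 1.46-fold. The abundant luminal chaperone genes Hspa5, Hsp90b1 and Calr, and the disulfide isomerase genes Pdia3, Pdia4 and Pdia6, did not pass the test. These calls come from the edgeR quasi-likelihood F test, with p-values adjusted after Benjamini and Hochberg over all genes, in which 25.2% of the 9810 genes were called higher and 25.2% lower, so a count of 4 of 10 does not by itself set the members apart. The median log2 fold change of the 10 was 0.46, against 0.013 over all genes tested, and it was 0.16 without septic library 3. No member was called lower, none was lower at an unadjusted p under 0.05, and DESeq2 called the same numbers, 4 higher and 0 lower. The same 4 genes passed under each of the 13 alternatives run.

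Levels are given as CPM, reads per 1000000 of the library size after TMM scaling (trimmed mean of M values), a method that assumes most genes do not change. With library totals alone as the scale, 8 of the 10 members passed as higher, the 4 above with Hspa5, Hsp90b1, Pdia3 and Calr. That scale called 43.4% of all genes higher and moved the median of all genes from 0.013 to 0.43, and the median of the members stood at 0.87. The libraries held 3086277 to 4016329 counts, so 1 read was worth 0.21 to 0.362 CPM, and intervals from counting alone would not cover the spread between libraries.

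**Figure D2:**
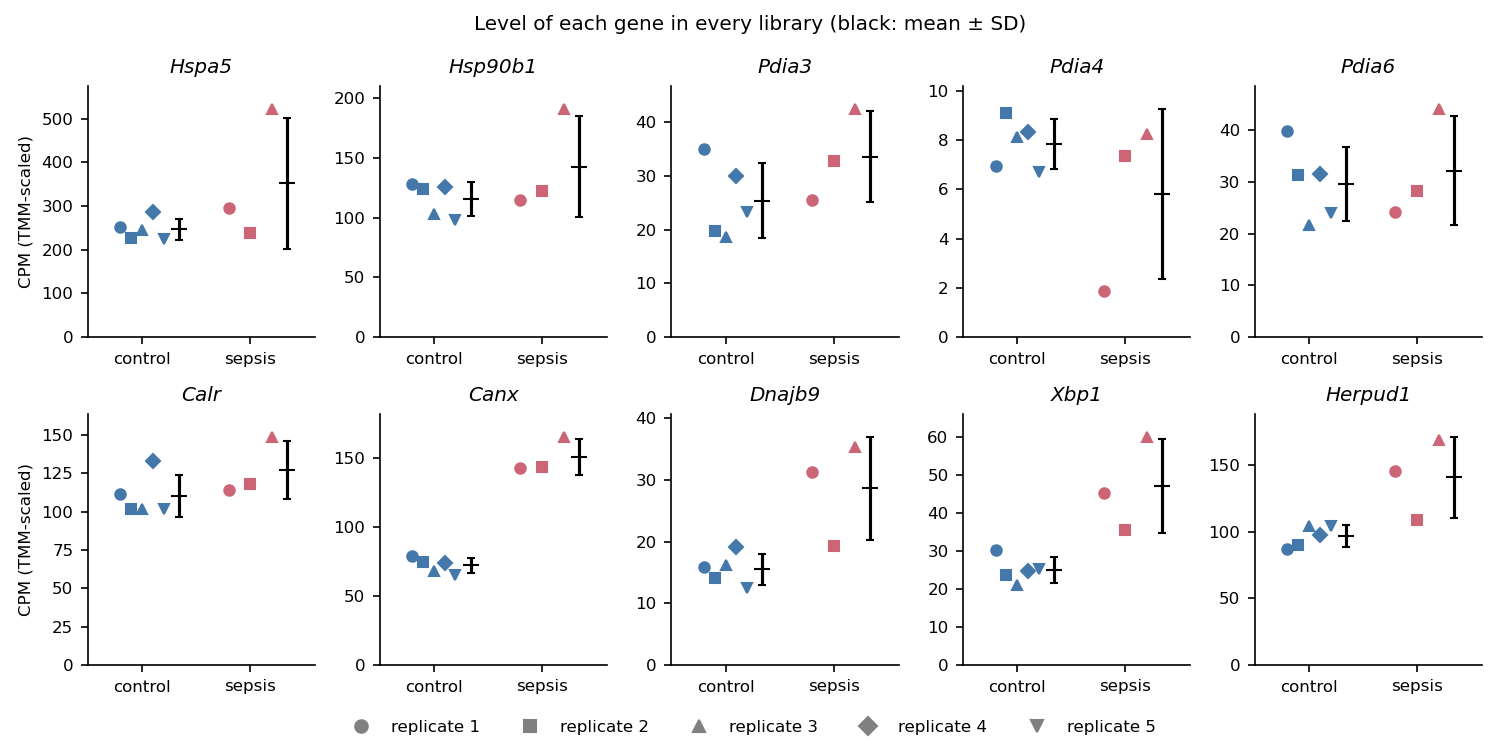
TMM-scaled CPM of the 10 genes in each library, controls in blue and sepsis in red, with mean and SD in black (n = 5 and 3) and the replicate number as symbol. Every septic library lies above every control for Canx, Dnajb9, Xbp1 and Herpud1.

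Xbp1 (ENSMUSG00000020484) encodes the transcription factor of the IRE1 branch. It stood at 30.3, 23.5, 21.1, 24.6 and 25.2 CPM in controls 1 to 5 and at 45.2, 35.5 and 60.0 CPM in septic libraries 1 to 3. Every septic library lay above the highest control, and the third septic library was highest. The group means were 24.9 ± 3.36 (SD, n = 5) and 46.9 ± 12.4 CPM (n = 3), a log2 fold change of 0.91 (SE 0.18, edgeR adjusted p = 0.000862). Every septic library lay above every control in 23.1% of all genes tested, and in 4 of the 10 members.

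Dnajb9 (ENSMUSG00000014905) encodes ERdj4, a J-domain partner of BiP that is a well-known target of XBP1. Its controls stood at 15.8, 14.1, 16.3, 19.2 and 12.4 CPM and the septic libraries at 31.4, 19.3 and 35.4 CPM. Septic libraries 1 and 3 were clearly higher, whereas the second lay just above control 4, the highest control. The log2 fold change was 0.88 (SE 0.21, edgeR adjusted p = 0.00329), from 15.6 ± 2.52 to 28.7 ± 8.36 CPM.

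Herpud1 (ENSMUSG00000031770) encodes a membrane protein that holds together the ubiquitin ligase complex of ER-associated degradation. Controls stood at 87.2, 90.4, 105, 97.6 and 105 CPM, and septic libraries at 146, 109 and 169 CPM. The groups did not overlap, although septic library 2 stood close to the highest controls. The means were 96.9 ± 8.03 and 141 ± 30.5 CPM, and the log2 fold change was 0.54 (SE 0.14, edgeR adjusted p = 0.00584).

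Canx (ENSMUSG00000020368) encodes calnexin, the membrane-bound lectin that holds glycoproteins while they fold. Control libraries stood at 79.1, 74.4, 68.1, 74.1 and 65.0 CPM, and septic libraries at 143, 143 and 165 CPM. The 3 septic libraries were close to each other and far above all controls. Means of 72.1 ± 5.59 and 150 ± 13.0 CPM gave a log2 fold change of 1.06 (SE 0.11, edgeR adjusted p = 6.09e-06). Over the alternatives it ran from 0.99 to 1.48, and the highest adjusted p was 0.00191.

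Calr (ENSMUSG00000003814) encodes calreticulin, the soluble relative of calnexin, which also binds calcium in the lumen. Its controls stood at 111, 102, 102, 133 and 102 CPM and its septic libraries at 114, 118 and 149 CPM, so the groups overlapped through control 4. The log2 fold change of 0.21 (SE 0.13, edgeR adjusted p = 0.207) did not pass, and 2 SE to either side span -0.056 to 0.48. The proportion of the lectin pair differed: there were 0.661 ± 0.0692 Canx reads per Calr read in controls (range 0.556 to 0.731) and 1.19 ± 0.0725 in sepsis (range 1.11 to 1.25). This ratio is taken within each library and does not depend on the scaling.

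Hspa5 (ENSMUSG00000026864) encodes BiP, the main luminal Hsp70 chaperone and the usual marker of ER stress. It was the most abundant member, at 251, 228, 246, 285 and 225 CPM in controls and at 296, 239 and 522 CPM in sepsis. The third septic library was far above all others, the first just above the highest control, and the second within the control range. The means of 247 ± 24.1 and 352 ± 150 CPM differed by a log2 fold change of 0.51 (SE 0.21) that did not pass (edgeR adjusted p = 0.066). For Hspa5, 2 SE to either side span 0.088 to 0.94. Without septic library 3 the log2 fold change was 0.12 (adjusted p = 0.454), and without septic library 2 it was 0.73 (adjusted p = 0.00705).

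Hsp90b1 (ENSMUSG00000020048) encodes GRP94, the Hsp90 of the lumen. Controls stood at 128, 124, 103, 126 and 97.8 CPM and septic libraries at 115, 122 and 191 CPM. Septic libraries 1 and 2 lay inside the control range and the third above it. The log2 fold change was 0.30 (SE 0.17, edgeR adjusted p = 0.148), and 0.036 without septic library 3.

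The 3 protein disulfide isomerases, which form and rearrange disulfide bonds, did not pass either. Pdia3 (ENSMUSG00000027248), whose protein ERp57 works with calnexin and calreticulin, stood at 34.98, 19.8, 18.7, 30.01 and 23.3 CPM in controls and at 25.5, 32.8 and 42.5 CPM in sepsis. Control 1 was higher than 2 of the 3 septic libraries, and the log2 fold change was 0.41 (SE 0.22, edgeR adjusted p = 0.146). Without control 1 it was 0.55 and passed (adjusted p = 0.0489).

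Pdia6 (ENSMUSG00000020571), which encodes P5, stood at 39.7, 31.4, 21.7, 31.5 and 23.9 CPM in controls and at 24.2, 28.1 and 44.1 CPM in sepsis. The groups overlapped almost fully, with a log2 fold change of 0.12 (SE 0.23, edgeR adjusted p = 0.689) that became -0.18 without septic library 3. Pdia4 (ENSMUSG00000025823), which encodes ERp72, was the least abundant member, at 6.94, 9.10, 8.13, 8.32 and 6.69 CPM in controls and 1.86, 7.35 and 8.22 CPM in sepsis. Its low first septic library rests on 7 reads, against 35 and 36 reads in the other septic libraries. The log2 fold change of -0.40 (SE 0.35, edgeR adjusted p = 0.359) was -0.013 without that library and 0.029 with library totals alone. For Pdia4, 2 SE to either side span -1.10 to 0.30, so a change of moderate size in either direction is within the error.

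**Figure D3:**
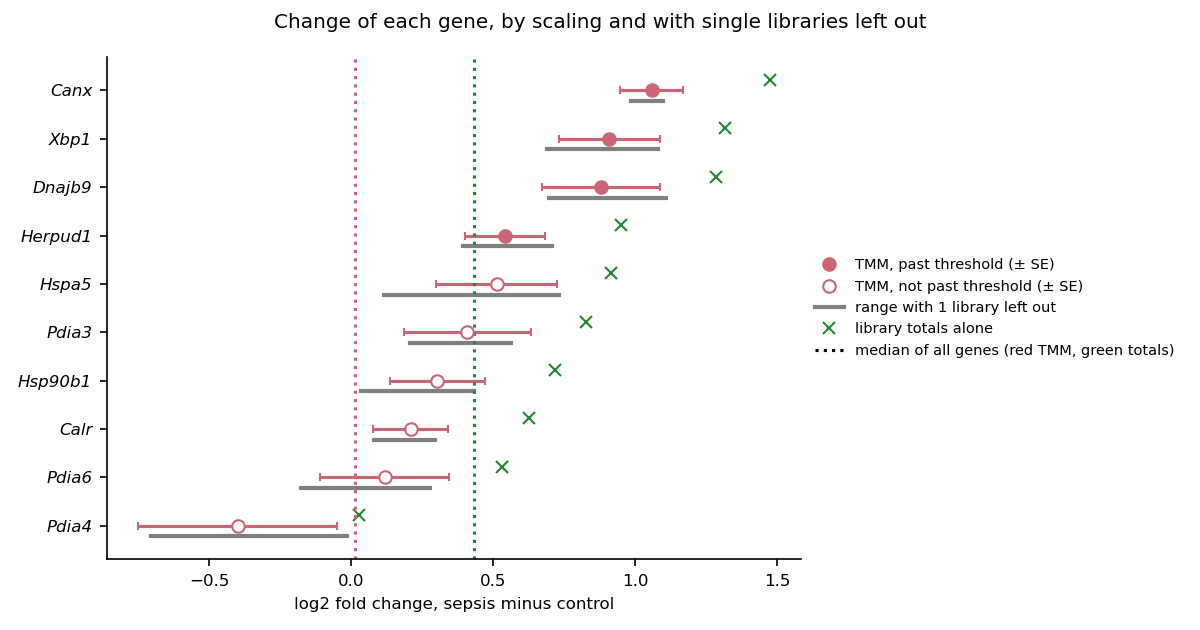
Log2 fold change of each gene, sepsis minus control, with TMM (circles, filled where past the threshold, bars ± SE), with library totals alone (green crosses) and over the fits with 1 library left out (grey). The dotted lines are the medians of all genes, 0.013 and 0.43, and all 10 crosses lie to the right of their circles.

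The third septic library had the highest CPM of the 3 septic libraries in 10 of the 10 members, with TMM and with library totals alone. Over all genes tested the same library was highest in 35.8% with TMM and 32.2% with library totals. The other septic libraries stood lowest by turns: library 2 was lowest for Hspa5, Dnajb9, Xbp1 and Herpud1, and library 1 for the remaining 6. Against the control mean, septic libraries 1, 2 and 3 differed by 0.26, -0.048 and 1.08 (log2) in Hspa5, but by 0.98, 0.99 and 1.20 in Canx. The coefficient of variation over the septic libraries was 42.5% for Hspa5 and 8.64% for Canx, and over the controls 9.76% and 7.76%. Septic libraries also differed more from one another than controls did over all genes, with a chi-square per degree of freedom of 12.2 to 29.5 between septic libraries and 2.16 to 7.63 between controls.

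**Figure D4:**
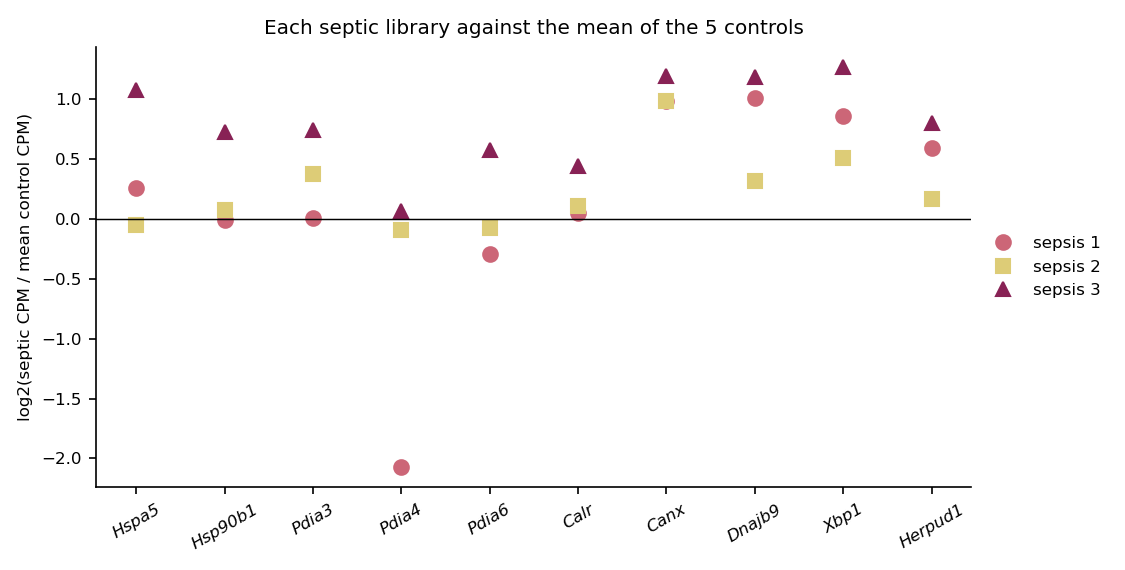
Log2 ratio of each septic library's CPM to the mean of the 5 controls for the 10 genes. Septic library 3 is the highest point in every gene, and the 3 points lie close together only for Canx and, at a lower level, Calr.

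Summed over the 10 genes, the controls held 784, 716, 709, 830 and 686 CPM and the septic libraries 942, 854 and 1387 CPM. All septic libraries lay above all controls in this sum, with means of 745 ± 59.9 and 1061 ± 286 CPM. Since levels from 3′ reads are not divided by length, the genes can also be ranked. In controls Hspa5 stood first, above Hsp90b1, Calr and Herpud1, whose ranges overlapped in that order, and then came Canx, then Pdia6, Pdia3 and Xbp1 with overlapping ranges, then Dnajb9 and last Pdia4. In sepsis Hspa5 was still first, Canx, Hsp90b1, Herpud1 and Calr followed with ranges that overlapped from each to the next, then Xbp1, Pdia3, Pdia6 and Dnajb9 likewise, and Pdia4 was last. In this order of means Canx moved from place 5 to place 2 and Xbp1 from place 8 to place 6.

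As a share of the reads of the 10 genes, Canx went from 9.70% ± 0.565 to 14.6% ± 2.46 and Xbp1 from 3.35% ± 0.405 to 4.43% ± 0.334, with no overlap between the groups. The shares of Calr, 14.7% ± 0.798 and 12.2% ± 1.55, and of Pdia4, 1.06% ± 0.153 and 0.550% ± 0.334, were lower in every septic library. Hspa5 kept a similar mean share, 33.1% ± 1.31 and 32.4% ± 4.90. Shares add up to a fixed total, so a higher share of one gene lowers the others, and no test was run on them.

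Markers of other cells moved between the groups and are given for reference. Summed CPM of 10 macrophage and leukocyte markers was 81.0 to 208 in controls and 325 to 554 in sepsis, and was highest in septic library 2, not 3. Of the 9 of these markers that were tested, 7 were called higher. Calls of Cd68, Itgam and Ptprc, included in the 7, came from genes with only 60, 29 and 44 reads over the 5 controls. These genes passed the expression filter through the septic libraries. Summed neutrophil markers were 0.903 to 4.14 CPM in controls and 68.9 to 151 in sepsis. Of these 8 markers, 4 had enough reads to be tested, and those reads came almost all from the septic libraries, so their calls are not counted. Of 8 B and plasma cell markers, a lineage rich in ER, 5 were listed at 0 in all libraries, and the sum was 0 to 2.11 and 0.457 to 0.840 CPM. The endothelial sum was 133 to 138 and 138 to 199 CPM, with 3 of 7 markers higher and 1 lower, while 6 of 6 fibroblast markers fell, from 1282 to 2783 down to 278 to 413 CPM. The 8 genes listed as fast-fibre markers, which include the general muscle genes Acta1 and Ckm, were present in every library. Their sum fell from 158251 to 189180 CPM to 70033 to 100004 CPM, and 8 of 8 fell. No slow-fibre marker was listed, so a fall particular to fast fibres is not shown. In bulk tissue, fewer cells of a type and less RNA per cell cannot be told apart, and the part of these cell types in the results was not tested.

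The other genes of the pathway were read from 7 lists. Over all genes tested, 25.2% were called higher and 25.2% lower, so counts near these shares do not set a list apart. In the order of the text, the lists had 26.1, 33.3, 51.9, 24, 20, 62.5 and 18.2% of tested genes called higher. Called lower were 8.7, 25, 3.7, 36, 20, 0 and 63.6%. Of 23 other ER folding factors tested, 6 rose, 2 fell and 15 did not pass, with a median log2 fold change of 0.059 that ran from 0.0029 without septic library 3 to 0.14 without control 1. Dnajc3, whose protein p58IPK is another J-domain partner of BiP, rose from 52.6 ± 3.08 to 103 ± 18.4 CPM (log2 fold change 0.97, SE 0.13, edgeR adjusted p = 4.1e-05). There were 3.44 ± 0.452 Dnajc3 reads per Dnajb9 read in controls and 3.71 ± 0.661 in sepsis, with overlapping groups. Qsox1, a sulfhydryl oxidase of the secretory pathway, rose by 1.84 (SE 0.18). Sil1, a nucleotide exchange factor of BiP, and Fkbp9, a prolyl isomerase of the ER, fell by 1.06 (SE 0.19) and 1.40 (SE 0.19). P4hb, the founding disulfide isomerase, rose by 0.39 (SE 0.11, edgeR adjusted p = 0.0129), a call lost without septic library 1 (adjusted p = 0.0531). Hyou1 and Sdf2l1, 2 further BiP partners, had log2 fold changes of 0.059 (SE 0.19) and -0.40 (SE 0.50) and did not pass, although Hyou1 did with library totals alone (adjusted p = 0.0473).

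Of 12 sensors and transducers of the unfolded protein response, 4 rose and 3 fell, with a median of 0.42. Ern1, which encodes the IRE1 kinase that splices Xbp1, rose from 4.03 ± 1.35 to 8.54 ± 2.94 CPM (log2 fold change 1.07, SE 0.31, edgeR adjusted p = 0.0108), a call lost without septic library 3 (adjusted p = 0.0777). Atf6 rose by 0.74 (SE 0.22, edgeR adjusted p = 0.0137) with overlapping groups, and that call was lost without septic library 1 (adjusted p = 0.0926), a fit in which this list had 2 higher calls. Tmbim6, an ER membrane regulator of IRE1, rose by 0.48 (SE 0.13, edgeR adjusted p = 0.00629), and the PERK gene Eif2ak3 had a log2 fold change of -0.75 (SE 0.41) and did not pass. The ATF6-related factor genes Creb3l1 and Creb3l2 fell by 2.13 (SE 0.34) and 1.04 (SE 0.29), the second not with library totals alone.

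Herpud1 belongs with ER-associated degradation, and of 27 further genes of that route 14 rose and 1, the ligase gene Rnf5, fell, with a median of 0.56. With septic library 1 or 2 left out, 2 fell. In the step that extracts substrates from the membrane, Ufd1 and Nploc4 form the adaptor of the p97 ATPase. Nploc4 rose from 28.5 ± 3.24 to 168 ± 15.4 CPM (log2 fold change 2.56, SE 0.12, edgeR adjusted p = 9.61e-09) and Ufd1 by 0.98 (SE 0.12). Ubxn4, which docks p97 at the ER, rose from 148 ± 19.1 to 688 ± 245 CPM, a log2 fold change of 2.22 (SE 0.20). Vcp, the gene of p97 itself, rose by 0.61 (SE 0.11), and the further p97-recruiting genes Faf2 and Ubxn8 had log2 fold changes of -0.27 (SE 0.20) and 0.13 (SE 0.19) and did not pass. Edem1, a mannosidase-like gene and known XBP1 target, stood at 2.33 ± 1.05 CPM in controls and 11.4 ± 5.87 in sepsis (log2 fold change 2.26, SE 0.39). It had only 38 reads over the 5 controls and passed the expression filter through the septic libraries. Its call, included in the 14, therefore carries little weight.

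Herpud2, the paralogue of Herpud1, rose 2.83-fold (SE 0.14 on the log2 scale), and there were 0.258 ± 0.0321 Herpud2 reads per Herpud1 read in controls and 0.5002 ± 0.0229 in sepsis, without overlap. In the ligase complex itself, Syvn1, which encodes HRD1, rose by 0.76 (SE 0.21, edgeR adjusted p = 0.00967), and its partner Sel1l had a log2 fold change of 0.13 (SE 0.12) and did not pass.

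**Figure D5:**
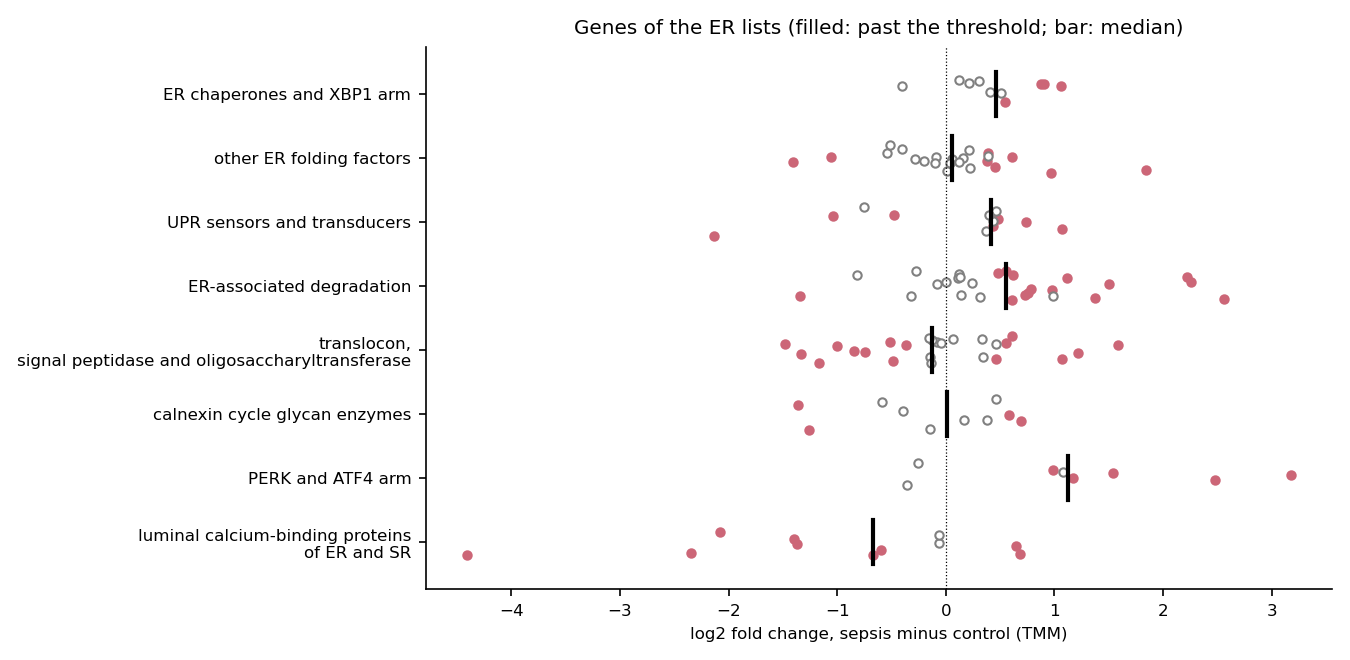
Log2 fold change, sepsis minus control, of every tested gene of the 10 members and of the 7 other lists (filled where past the threshold), with the median of each list as a bar. The medians run from -0.67 for luminal calcium-binding proteins to 1.13 for the PERK and ATF4 arm.

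The entry steps, and the glycan steps around the calnexin cycle, did not move in a single direction. Of 25 genes of the translocon, signal peptidase and oligosaccharyltransferase, 6 rose and 9 fell, with a median of -0.13 (-0.045 without septic library 2 and -0.060 without control 2), and with library totals alone 11 rose, 4 fell and the median was 0.29. Srpr, the receptor that docks ribosomes at the ER, fell by 1.48 (SE 0.12), while Spcs3 of the signal peptidase, Stt3b of the oligosaccharyltransferase and Sec63 of the translocon rose by 1.58 (SE 0.19), 1.22 (SE 0.15) and 1.07 (SE 0.15). Among 10 glycan enzymes and lectins around calnexin, 2 rose and 2 fell, with a median of 0.0090 that ran from -0.050 without septic library 1 to 0.25 without control 5. Uggt1, which sends misfolded glycoproteins back to calnexin and calreticulin, rose from 60.3 ± 2.64 to 97.3 ± 11.8 CPM (log2 fold change 0.69, SE 0.12), and Man1a2, a Golgi mannosidase, rose by 0.58 (SE 0.14). Lman1, a cargo lectin that leaves the ER, fell by 1.36 (SE 0.15). Uggt2 fell by 1.26 (SE 0.46, edgeR adjusted p = 0.0361), and passed in 2 of the 9 alternatives in which it was tested. With any of controls 1, 2, 3 or 5 left out it had too few reads to be tested, and its call was lost without control 4 (adjusted p = 0.0573) and without septic library 1 (0.0608) or 3 (0.158). The list had 1 lower call without any of controls 1 to 4 or septic library 1.

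In the PERK and ATF4 arm, 5 of 8 tested genes were called higher and none lower, against 25.2% of all genes tested in each direction. The same counts were reached at an unadjusted p under 0.05 and with DESeq2, and the median was 1.13. Without control 1, 2, 3 or 5, without septic library 3 and with a replicate block, 4 were higher, and without control 4, 6 were. Ppp1r15a, which encodes the phosphatase subunit GADD34, rose from 18.3 ± 4.54 to 166 ± 38.7 CPM (log2 fold change 3.18, SE 0.20, edgeR adjusted p = 9.53e-08). Atf4 rose from 223 ± 10.9 to 503 ± 75.1 CPM, by 1.17 (SE 0.11), and Cebpb and Ppp1r15b rose by 1.54 (SE 0.26) and 0.98 (SE 0.17). Atf3 rose by 2.47 (SE 0.83, edgeR adjusted p = 0.04) with overlapping groups, at 11.4, 5.67 and 59.4 CPM in septic libraries 1 to 3. Chac1, Nupr1 and Ddit4 had log2 fold changes of -0.26 (SE 0.69), -0.36 (SE 0.30) and 1.08 (SE 0.85) and did not pass. Trib3, Asns and Sesn2 had too few reads to be tested, and Ddit3, also listed, had no row under that name and could not be read.

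Calr also binds calcium, and 11 further genes of calcium-binding proteins of the ER, sarcoplasmic reticulum and wider secretory pathway were listed. Of these, 7 fell and 2, Nucb1 and Nucb2, rose, with a median of -0.67. The calsequestrin gene Casq1, whose protein is the main calcium buffer of the fast-fibre store, fell from 1059 ± 59.0 to 49.8 ± 8.66 CPM (log2 fold change -4.41, SE 0.15, edgeR adjusted p = 3.44e-10). Hrc, a histidine-rich calcium-binding protein gene, Srl (sarcalumenin) and Calu (calumenin) fell by 2.07 (SE 0.14), 1.40 (SE 0.12) and 0.67 (SE 0.13), Calu not with library totals alone. Per Casq1 read there were 0.104 ± 0.0105 Calr reads in controls and 2.57 ± 0.298 in sepsis, and 0.234 ± 0.0207 and 7.04 ± 2.34 Hspa5 reads. Without controls 2, 3 or 4, or septic libraries 2 or 3, 1 gene of this list was called higher.

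An ERSE or ERSE-II was searched in these lists as well, in genes found in the promoter table. It was found in 4 of 21 other folding factors (Creld2, Dnajb11, Dnajc3 and Ero1b), in 2 of 20 genes of ER-associated degradation (Derl3 and Syvn1), in 1 of 9 calcium-binding protein genes (Nucb1) and in none of the sensor, translocon, glycan and PERK lists. Over all promoters 0.155% held either element, and no test of enrichment was run. The strand setting of the counting is not stated in the sources used here. In the earlier-build annotation, exons of Hsp90b1, Pdia3, Pdia6 and Dnajb9 overlap the opposite-strand genes 1810014B01Rik, Catsper2, Atp6v1c2 and Mir5627. If counting ignored the strand, reads inside such an overlap could not be told apart for these 4 members. On the same strand, where no strand setting separates them, exons of Hsp90b1 overlap Gm15344 and Gm25745, and those of Pdia4 overlap Mir704. Mir5627, Gm25745 and Mir704 are annotated as microRNA genes. Any exon overlap was counted, and whether it lies at the 3′ ends that were read was not checked.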

How the data were processed

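For each library the authors deposited whole-number read counts by gene, not normalized, and no other measurement was used. QuantSeq 3′ libraries were made from 25 ng of column-purified total RNA, per the labels' protocols. Per the submitters' processing notes the build was GRCm39. The aligner, counter, strand setting and annotation release are not given in the sources used here.

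Septic libraries (3) were compared with control libraries (5) by edgeR 4.0.16 in R 4.3.3, without covariates: filterByExpr (minimum count 10, minimum total 15, which kept 9810 of 25655 genes), TMM scaling, robust quasi-likelihood F test, and Benjamini-Hochberg adjustment over all genes tested with a threshold of 0.05. The SE is the absolute log2 fold change divided by the square root of F, derived from the test. CPM used TMM-scaled library sizes. Totals of 3086277 to 4016329 counts set the precision. Molecular identifiers are not mentioned in these sources, so reads may not be independent molecules and depth bears on counting error only.

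The members and the 14 gene lists (172 entries, 171 matched to a row, Ddit3 having no row under that name) were chosen with earlier results of these data known. The lists are the members, 7 lists of ER genes and 6 of cell-type markers. Named are all members, up to 4 genes per ER list with the smallest p past the threshold, and 12 key genes. Rnf5, Vcp, Faf2, Ubxn8, Nucb1 and Nucb2, the further genes of the PERK and ATF4 arm, and the genes named for a promoter match, were chosen after their values were seen. Lists were not tested, only counted. Promoters came from RefSeq's table of GRCm38.p6, which held all 10 members and another build than the counts, so it was used by gene name. The test was checked on simulated data with 200 genes changed, raised and lowered in equal number. That check does not bear on TMM scaling when many more genes change. Alternatives were upper-quartile scaling, library totals alone, DESeq2 1.42.0, no expression filter, a replicate block and each library left out in turn.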

Additional observations from a re-analysis of the deposited data

Results flagged for a closer look

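Of 63 items screened for a control library lying apart from the other 4, 4 were found, and chance gives about 1 in 20. All 4 were in control 1. Qsox1 stood at 21.7 CPM there and at 13.7 to 15.6 CPM in the other controls. Ubxn4 stood at 182 CPM, against 136 to 142 CPM. Uggt2 stood at 1.67 CPM, against 2.89 to 3.31 CPM. The summed macrophage and leukocyte markers stood at 208 CPM, against 81.0 to 99.98 CPM in the other controls and 325 to 554 CPM in sepsis. None of the 10 members had a control library apart from the others by this measure.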

How the results depend on the processing

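The calls of Canx, Xbp1, Dnajb9 and Herpud1 stood in all 13 alternatives. With library totals alone, 4256 genes were higher and 1387 lower, 8 members were higher, and in the lists 10 folding factors, 8 sensors, 22 degradation genes, 11 translocon genes and 4 glycan enzymes were higher and 1 sensor, 4 translocon genes and 1 glycan enzyme lower. The summed control level of the members was then 666.5 CPM. The log2 fold changes that changed sign were those of Pdia4 (0.029) and Sdf2l1 (0.027) with library totals alone and, with 1 library left out, Pdia6 (-0.18 without septic library 3, highest 0.28), Hyou1 (-0.078 without septic library 3, highest 0.13) and Sdf2l1 (0.070 without septic library 1, lowest -0.77), none past the threshold in those fits. The causes were not tested.

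DESeq2 and the fit with no filter each called 1 glycan enzyme lower. With 1 library left out, 2 to 6 sensors were higher, 1 to 2 degradation genes and 1 to 2 glycan enzymes were lower, and 1 to 2 calcium-binding genes were higher.

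Replicate numbers 1 to 3 are shared by the groups, and the sample titles do not say whether they pair the samples. Deviations of same-numbered libraries correlated at r = -0.124, 0.0409 and -0.0196 across genes. These low values show no pairing but cannot exclude it, and control 1 correlated best with septic library 2 (0.127). A fit with a replicate block called 1741 genes higher and 1884 lower, and 4 members higher. It called 3 folding factors, 2 sensors and 1 glycan enzyme higher, 1 glycan enzyme lower and 0 calcium-binding genes higher, and P4hb (adjusted p = 0.109), Atf6 (0.0503), Tmbim6 (0.102), Man1a2 (0.0741) and Uggt2 (0.143) did not pass. With 3 septic libraries of unequal spread, members such as Pdia4, at 7 reads in 1 library, are limited in precision.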

Other observations

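The library with the highest CPM among the 3 septic libraries was also counted in the other ER lists, with TMM. Septic library 3 was highest in 12 of 23 other folding factors, 16 of 27 genes of ER-associated degradation, 7 of 12 sensors and transducers, 13 of 25 translocon genes and 5 of 10 glycan enzymes, against 35.8% of all genes tested. In the PERK and ATF4 arm it was highest in 2 of 8 genes, and septic library 1 in 5 of 8. Among the calcium-binding genes it was highest in 4 of 11. With library totals, where septic library 2 was highest in 46.1% of all genes tested, library 3 was highest in 10 of 23 folding factors, 13 of 27 degradation genes and 7 of 12 sensors, while library 2 led in the translocon genes (11 against 9 of 25), glycan enzymes (5 against 4 of 10) and calcium-binding genes (7 against 1 of 11).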
